A study of Solanum tuberosum with 6 samples.

Results

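Cytochrome P450 clones outside the named biosynthetic pathways were followed after salt watering of potato plants (Solanum tuberosum, cultivar PS3). They are the 77 of 10499 cDNA clones on the array whose annotation names a cytochrome P450 or a CYP number and no sterol, cinnamate, coumarate, flavonoid, oxylipin, gibberellin or cyclophilin term. Potted plants acclimatized for 2 months received 75 mL of 150 mM NaCl, and control plants were given tap water in equal volume. Leaves 1 and 2 of each plant were sampled 1 and 3 days later, from different plants on each day. Each of 6 two-colour arrays set salt-watered leaves against control leaves of the same day and replicate, with 3 biological replicates per day. Salt RNA was labelled with Cy3 in replicates 1 and 3 of each day and with Cy5 in replicate 2. The comparison on each day is of salt-watered with control leaves, and the days are compared through their ratios.

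Every value below is a log2 ratio, taken as salt over control, so that 1 is a doubling and -1 a halving. This direction is probable rather than given, and rests on the labels alone, which make control the reference. Within a day the arrays of opposite dye had positive correlations over all clones, of 0.577 and 0.506 for day 1, then 0.475 and 0.639 for day 3. This bears on whether the arrays of a day run the same way, and would be the same with all ratios reversed. Base 2 is likewise an assumption. The arrays measured between 7867 and 10381 clones. Replicate 1 of day 3 was unlike the day 1 arrays, with correlations between -0.086 and 0.031. Ratios hold no expression level, so the leaf identity of the samples was not checked against marker levels, and fewer cells of a type cannot be told apart from less RNA per cell. The number of arrays limits the precision.

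Cytochromes P450 are haem-containing monooxygenases, most of them anchored in the membrane of the endoplasmic reticulum, that insert an oxygen atom into a substrate with electrons passed from NADPH by a P450 reductase. Plants hold very large P450 families, numbered by sequence similarity. They serve hormone synthesis and breakdown, lignin, cutin and suberin, and the many defence compounds of each lineage. In the potato family the latter include sesquiterpene phytoalexins and steroidal glycoalkaloids. A clone here carries the name of the most similar known gene, often from another species, so a family number is a similarity and not a proof of function.

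The word rule was checked against the annotation. Of the 77 clones, 68 carried the gene ontology term for oxygen binding, 4 carried other terms only and 5 carried none. A pair of clones named peptidyl-prolyl isomerase CYP40 (STMGU88 and STMGP53) met the rule through the letters of their name, although CYP40 is a cyclophilin and not a P450. A family number could be read from 37 annotations, in 14 families, and 38 clones had none. Some members do belong to known pathways that their names leave out. The tomato CYP85A1 (1 clone) and the Arabidopsis CYP90C1 (2 clones) act in brassinosteroid synthesis, and 5 clones carried a gene ontology term for lignin synthesis. Clones also repeat: linked by shared assembly numbers, directly or through another clone, the 77 clones fell into 65 assemblies. In 9 assemblies with more than 1 clone lay 21 clones. Clones linked in this way need not hold 1 transcript. No clone was matched to a RefSeq gene of potato, so positions in the genome are not given.

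On day 3 a small group of P450 clones fell strongly, and those of them measured on day 1 were then near 0. The group holds 7 clones, all annotated only as putative cytochrome P450 and without a family number, with fitted ratios from -3.52 to -1.64, or falls of 11.5-fold to 3.12-fold. The next lower P450 clone on day 3 was at -0.68, and the group was set apart after its values were seen. On the single arrays the 7 clones lay between -3.95 and -1.15 on day 3. The 6 of them with day 1 values lay between -0.64 and 0.71 on that day.

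STMGN13, named after a tomato P450, had ratios of -3.83, -3.39 and -3.14 on replicates 1, 2 and 3 of day 3, against -0.09, -0.64 and 0.68 on day 1. STMCG85, named after a P450 of Nicotiana plumbaginifolia, had -3.95, -3.30 and -3.05 on day 3 and 0.13, -0.45 and 0.19 on day 1. STMGB09 had -3.30, -3.19 and -2.56 on day 3 and 0.32, -0.40 and 0.71 on day 1. These clones had every day 3 array below every day 1 array, whichever dye carried the salt RNA. Another clone, STMDE16, had -2.33, -2.68 and -1.71 on day 3 and 0.01, -0.30 and 0.26 on day 1. STMGN13, STMCG85 and STMGB09 share an assembly number, while STMDE16 shares numbers with STMCG85 alone. Linked in this way they are counted as 1 assembly, and may report 1 gene or a few close copies. Cross-hybridization between such copies was not tested.

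The remaining clones of the group lay in 3 other assemblies. STMEA65, with the same tomato annotation as STMGN13, was measured on day 3 only, at -2.82, -2.54 and -2.61. STMGP12, named after a potato P450, had -2.40 and -2.56 on replicates 1 and 2 of day 3 and -0.39 and 0.11 on replicates 2 and 3 of day 1. STMGF70, with the same potato annotation, had -1.15, -1.90 and -1.71 on day 3 and -0.07, -0.25 and -0.05 on day 1. The fall was thus seen on each array of day 3 on which a clone was measured, in every assembly.

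With limma over all clones and a dye term per clone, the fitted day 3 ratios of the group were -3.52 for STMGN13 (SE 0.22, adjusted p = 2.374e-05), -3.47 for STMCG85 (SE 0.19, adjusted p = 1.235e-05), -3.12 for STMGB09 (SE 0.18, adjusted p = 1.429e-05) and -2.62 for STMEA65 (SE 0.13, adjusted p = 5.635e-05). They were -2.48 for STMGP12 (SE 0.15), -2.33 for STMDE16 (SE 0.15) and -1.64 for STMGF70 (SE 0.14). The difference between the days was itself past the threshold in 6 of the 6 clones measured on both days, from -3.43 for STMGN13 (SE 0.30, adjusted p = 0.000389) to -1.46 for STMGF70 (SE 0.19, adjusted p = 0.00257). STMEA65 and STMGP12 rest on 3 and 4 arrays and 1 residual degree of freedom each, and could not be refitted without one of their own arrays. The calls of the other 5 clones held without any single array.

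**Figure D1:**
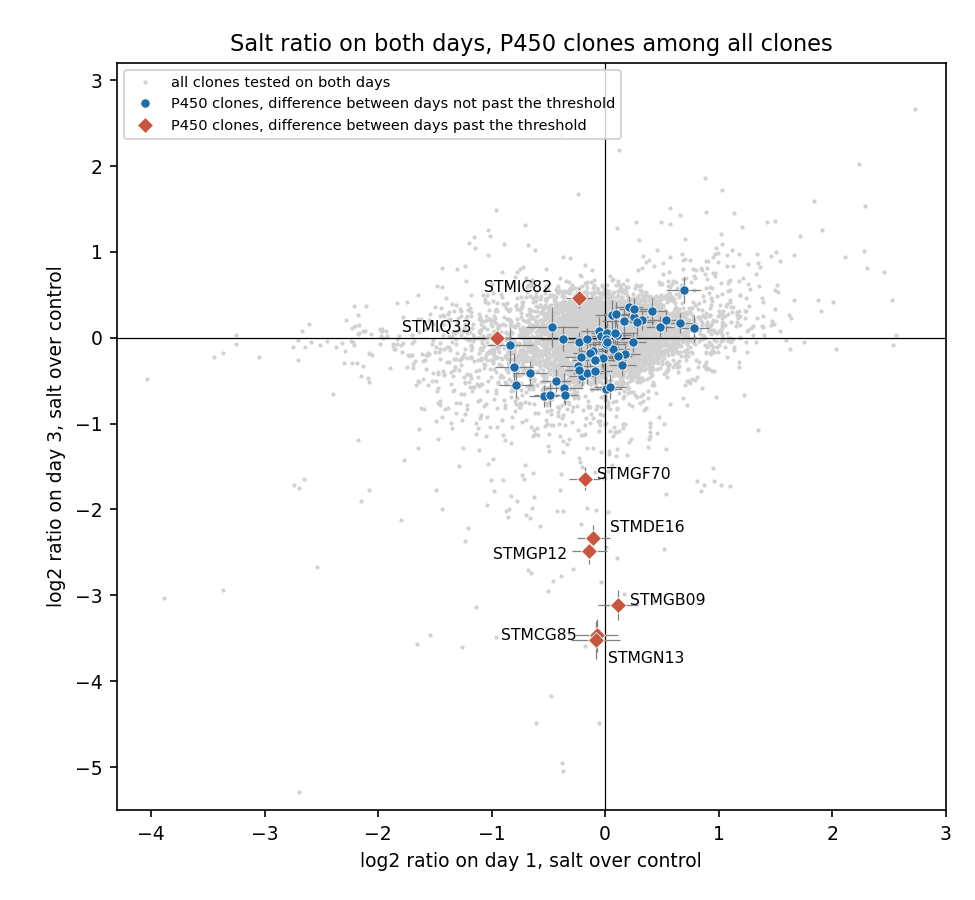
Fitted log2 ratio (salt over control) on day 1, horizontal, against day 3, vertical, for P450 clones tested on both days (coloured, bars are SE) and all clones tested on both days (grey). Diamonds passed the test of the difference between days: 6 of them lie near 0 on day 1 and between -3.52 and -1.64 on day 3, while STMIQ33 was at -0.95 on day 1 and near 0 on day 3.

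Among all clones lower on day 3, the group stood near the extreme. Below -1 lay 161 of these lower clones, 7 of them P450 clones (4.35%). Below -2, 6 of 47 were P450 clones (12.8%), and below -3, 3 of 18 (16.7%). All these P450 clones belong to the group, which was picked for its low values. Among all 9032 tested clones, 63 were P450 clones. STMGN13 ranked as number 10, STMCG85 as number 12 and STMGB09 as number 16 of the 400 lower clones. All 3 of these belong to 1 assembly. Of the 9 tested P450 clones with the word putative in the annotation, 7 were lower. STMHA12 at -0.05 and STMJL62 at -0.01 were not past the threshold, and a further such clone, STMIL90, was not tested on day 3. The 7 lower clones are the group itself, set apart after its values were seen, so this count is no separate support. Clones with the word putative on the whole array were not counted.

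In all, 12 of 63 tested P450 clones were lower on day 3 and 1 was higher, against a background of 4.43% lower and 1.96% higher over 9032 tested clones (limma, adjusted p under 0.05). The lower clones made up 19.0% of those tested. Counted once per assembly, 9 of 54 were lower, where any lower clone made its assembly lower. The share of lower assemblies over the whole array was not computed. At an unadjusted p under 0.05, 25 P450 clones (39.7%) passed in either direction, against 18.8% of all tested clones. The median ratio of the tested P450 clones was -0.156, and -0.062 without the group of 7, while the median over all clones was 0.014. Without replicate 2 of day 3 the lower count was 5, with STMEA65 and STMGP12 no longer testable. Of 77 clones, 14 could not be tested on day 3, because each had fewer than 2 arrays of that day.

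The other 5 lower clones on day 3 fell by little, from -0.68 to -0.57. They include the CYP71D7 pair, named after a P450 of the wild potato Solanum chacoense. CYP71D is a large subfamily that in tobacco includes an enzyme of sesquiterpene phytoalexin synthesis. STMIY92 had -0.48, -0.76 and -0.80 on day 3 and -0.71, -0.47 and -0.44 on day 1. It was lower on both days, at -0.68 (SE 0.13, adjusted p = 0.012) on day 3 and -0.54 (SE 0.13, adjusted p = 0.0161) on day 1. STMIU16 had -0.42, -0.67 and -0.39 on day 3 and 0.04, -0.30 and 0.62 on day 1. Its day 3 ratio of -0.57 passed (adjusted p = 0.0496), and its day 1 ratio of 0.05 did not. The difference between its days, -0.61 (SE 0.19), was not past the threshold (adjusted p = 0.0793).

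Both CYP71D7 clones were thus below 0 on every array of day 3. The days overlapped in STMIY92 and did not in STMIU16. STMJA51, named only after a potato P450, had -0.63, -0.72 and -0.66 on day 3 and -0.49, -0.28 and -0.30 on day 1, with a fitted day 3 ratio of -0.66 (SE 0.11, adjusted p = 0.00779). STMJA67, named after a tobacco P450, had -0.49, -0.72 and -0.92 on day 3 and -0.63, -0.20 and -0.76 on day 1. It was lower on both days, at -0.67 (adjusted p = 0.0204) and -0.49 (adjusted p = 0.0388). STMER86, like an Arabidopsis P450, was at -0.25, -0.67 and -0.79 on day 3 (fitted -0.60, adjusted p = 0.0409) and between -0.09 and 0.28 on day 1.

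The calls of these 5 clones were weaker than those of the group of 7. Without replicate 2 of day 3 none of the 5 stayed past the threshold, with adjusted p up to 0.548. STMER86 was also lost without any array of day 1 or without replicate 3 of day 3, and STMIU16 without replicate 1 or 2 of day 1 or any array of day 3. STMJA67 was also lost without replicate 1 of day 1 or replicate 3 of day 3. A clone outside the rule shares an assembly with STMIU16. It carries no annotation (STMJP72), had -0.89, -0.82 and -0.84 on day 3, and was lower on both days, at -0.81 and -0.41.

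A single clone was higher on day 3. STMIC82, like an Arabidopsis P450, had 0.67, 0.33 and 0.50 on day 3, above its day 1 values of -0.22, -0.33 and -0.02. Its day 3 ratio was 0.46 (SE 0.11, adjusted p = 0.0488) and its difference between days 0.69 (SE 0.16, adjusted p = 0.0238). Leaving out any of the 6 arrays ended the day 3 call, and leaving out any array of day 1 or replicate 2 of day 3 ended the call of the difference.

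**Figure D2:**
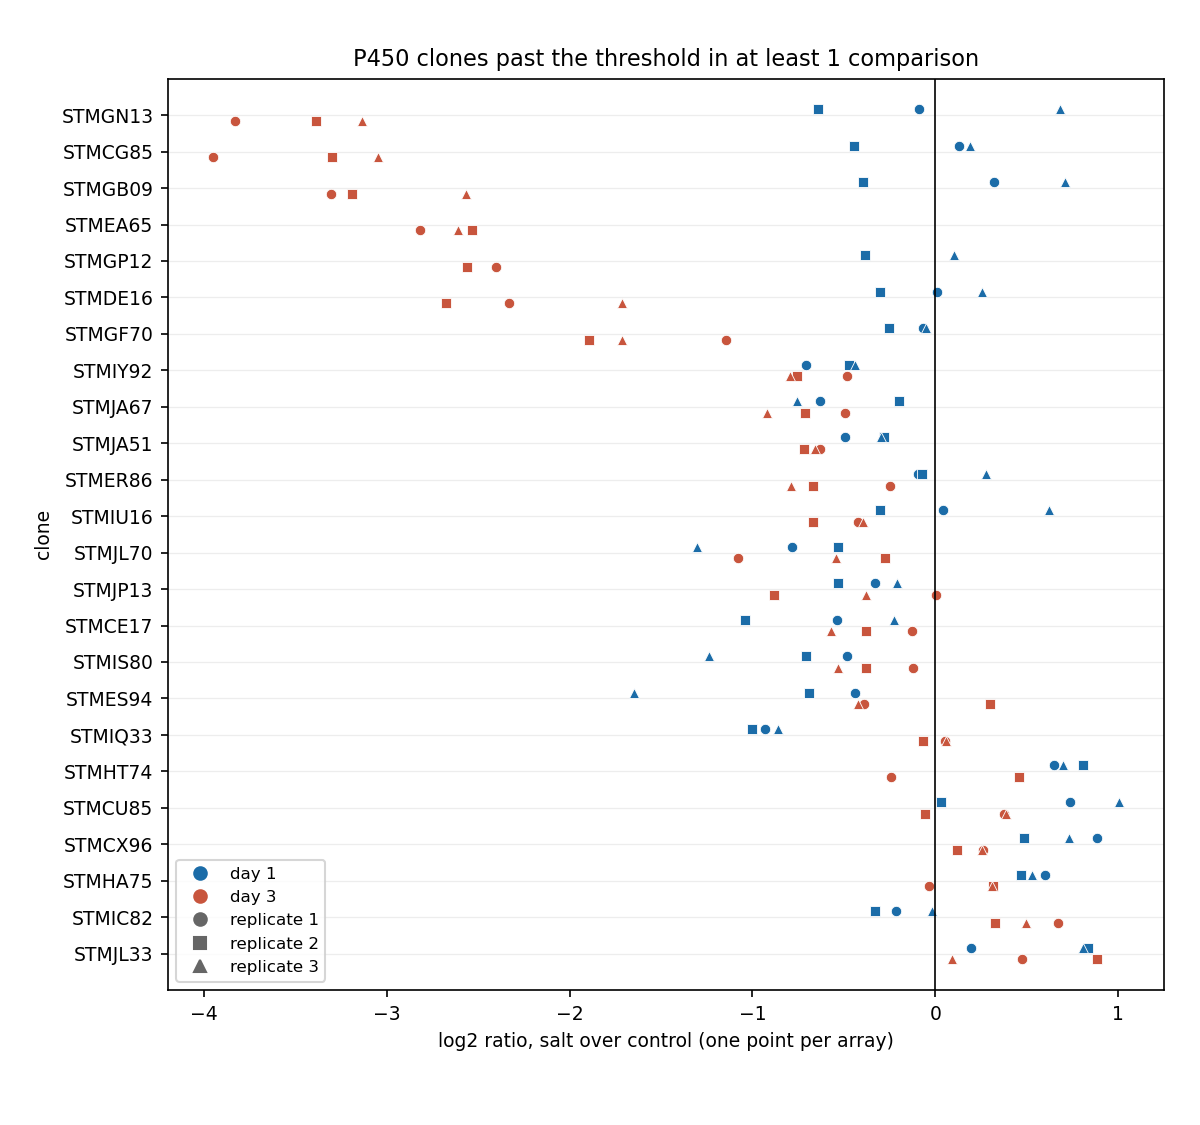
Log2 ratios (salt over control, horizontal) of the 24 P450 clones past the threshold on day 1, on day 3 or for the difference, in order of the fitted day 3 ratio, with 1 point per array (blue, day 1; red, day 3; the shape gives the replicate). The upper 7 clones lie between -3.95 and -1.15 on day 3 and between -0.64 and 0.71 on day 1, apart from STMEA65, which has no day 1 value.

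On day 1 the P450 clones moved in both directions and by less than a doubling or halving. Of 67 tested clones, 8 were lower and 5 higher, against a background of 10.4% lower and 8.11% higher over 9738 tested clones (limma, adjusted p under 0.05). These are 11.9% and 7.46% of the tested members, near the background. At an unadjusted p under 0.05, 17 of 67 P450 clones passed in either direction, against 31.1% of all tested clones. The median of the P450 clones was -0.051 and that of all clones 0.031, with P450 ratios from -0.95 to 0.78. In each of the 13 called clones all day 1 arrays lay on 1 side of 0.

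The largest fall of day 1 was in a clone with lignin terms. STMIQ33 is named after a pear P450. Like STMES94, STMCR55 and STMIY66, it carries the ontology terms for ferulate 5-hydroxylase, the P450 that leads to syringyl lignin. STMIQ33 had -0.93, -1.001 and -0.86 on day 1 against 0.05, -0.07 and 0.06 on day 3. The arrays of a day differed by little and the days did not overlap. The fitted ratio was -0.95 on day 1 (SE 0.11, adjusted p = 0.000541) and -0.003 on day 3. The difference between the days was 0.95 (SE 0.15, adjusted p = 0.00523), and both calls held without any single array.

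Other clones with lignin terms differed from each other. STMES94, with the same pear annotation, had -0.44, -0.69 and -1.65 on day 1 and -0.39, 0.30 and -0.42 on day 3, with a day 1 ratio of -0.84 (SE 0.21, adjusted p = 0.0214). The difference between its days did not pass (adjusted p = 0.133), and the day 1 call was lost without replicate 2 or 3 of day 1. The ginseng-like clones STMCR55 and STMIY66 were at -0.02 and -0.14 on day 1 and at -0.24 and -0.18 on day 3, none past the threshold. STMIC76, a CYP98A clone, whose family hydroxylates coumaroyl esters on the way to lignin, was measured on 3 arrays, at 0.18, 0.002 and 0.32 (replicates 1 and 2 of day 1 and replicate 1 of day 3), and could not be tested. Of the 4 tested clones with lignin terms, 2 were lower on day 1 and 0 on day 3 (limma, with no unadjusted p under 0.05 on day 3). Among all tested clones 10.4% were lower on day 1 and 4.43% on day 3.

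Both brassinosteroid families had a called clone on day 1, in opposite directions. STMCE17, named after tomato CYP85A1, the enzyme known as Dwarf that makes the active hormone, had -0.54, -1.04 and -0.22 on day 1 and -0.13, -0.38 and -0.57 on day 3. Its ratio was -0.66 (SE 0.15, adjusted p = 0.0152) on day 1 and -0.42 (adjusted p = 0.166) on day 3. STMHT74, named after CYP90C1, a hydroxylase of earlier steps in Arabidopsis, had 0.65, 0.81 and 0.70 on day 1 and -0.24 and 0.46 on replicates 1 and 2 of day 3. It rose by 0.78 on day 1 (SE 0.13, adjusted p = 0.00473), and its difference between the days, -0.67, did not pass (adjusted p = 0.0765). A second CYP90C1 clone of the same assembly, STMIP67, had 0.74 and 0.46 on replicates 1 and 3 of day 1 and could not be tested. The call of STMCE17 was lost without replicate 1 or 2 of day 1, and that of STMHT74 without replicate 1 (adjusted p = 0.0506).

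The CYP72B clones had medians above 0 on both days. In Arabidopsis the name CYP72B1 was first given to BAS1, which inactivates brassinosteroids. Of 6 clones, 2 were higher on day 1 and 0 on day 3 (limma, 1 at an unadjusted p under 0.05 on day 3). Among all tested clones 8.11% were higher on day 1 and 1.96% on day 3. The medians of the 6 clones were 0.300 and 0.176, beside 0.031 and 0.014 over all clones. Their ratios ranged from -0.05 to 0.66 on day 1 and from 0.08 to 0.33 on day 3. Without replicate 2 of day 1 neither of the higher calls held. STMCX96 had 0.88, 0.48 and 0.73 on day 1, above its day 3 values of 0.26, 0.12 and 0.26. It rose by 0.66 on day 1 (SE 0.11, adjusted p = 0.00354), and its difference between days was -0.49 (adjusted p = 0.0775).

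STMCU85 had 0.74, 0.03 and 1.00 on day 1 and 0.37, -0.06 and 0.39 on day 3. It rose by 0.48 on day 1 (SE 0.12, adjusted p = 0.0248), and on both days replicate 2, with the opposite dye, was the lowest. A clone of the same assembly, STMET13, was at -0.05 on day 1 and 0.08 on day 3, so clones linked as 1 assembly differed in value. STMCX96 likewise differed from STMCQ78, a clone linked to it and like an Arabidopsis P450, at -0.47 on day 1 (limma, adjusted p = 0.206). Each pair shares some assembly numbers and not others, so its clones may hold different transcripts. The remaining CYP72B clones, STMIS75, STMIU37 and STMIR78, lay between 0.25 and 0.32 on day 1 and between 0.18 and 0.33 on day 3.

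The CYP78A and CYP82E clones were higher on day 1. STMJL33 is named after a CYP78A of Medicago, a family that in Arabidopsis sets organ size. It had 0.20, 0.83 and 0.81 on day 1 and 0.48, 0.88 and 0.09 on day 3. It rose by 0.69 on day 1 (SE 0.15, adjusted p = 0.0126). On day 3 it was at 0.56, the highest of the tested P450 clones, without passing the threshold (adjusted p = 0.066). STMHA75 is named after tobacco CYP82E3, of the subfamily of nicotine demethylases. It had 0.60, 0.47 and 0.53 on day 1 and -0.04, 0.31 and 0.31 on day 3, without overlap, and rose by 0.54 on day 1 (SE 0.12, adjusted p = 0.0152). The difference between its days was -0.34 (adjusted p = 0.256).

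Among the CYP83 clones, a family that in Arabidopsis makes glucosinolates, 1 of 5 was lower on day 1, beside 10.4% of all tested clones. STMJL70, named after CYP83C, had -0.78, -0.53 and -1.30 on day 1 and -1.08, -0.28 and -0.54 on day 3. Its ratios overlapped between the days, at -0.79 (SE 0.15, adjusted p = 0.00648) on day 1 and -0.55 (adjusted p = 0.0705) on day 3. The 4 CYP83A clones lay between -0.21 and 0.12 on day 1 and between -0.44 and -0.04 on day 3, none past the threshold. STMHN67, at -0.44 on day 3, was nearest to it (adjusted p = 0.0565).

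Of the petunia-like clones without a family number, 2 were lower on day 1, beside 10.4% of all tested clones. STMIS80 had -0.48, -0.71 and -1.24 on day 1 and -0.12, -0.38 and -0.53 on day 3, with a day 1 ratio of -0.80 (SE 0.16, adjusted p = 0.00913). STMJP13 had -0.33, -0.53 and -0.21 on day 1 and 0.004, -0.88 and -0.38 on day 3. Its day 1 ratio of -0.44 lay at the threshold (adjusted p = 0.04999). STMIZ25 was at -0.37 (adjusted p = 0.278) on day 1 and -0.01 on day 3, and another clone of this annotation, STMJC24, had 1.02 and -0.20 on replicates 2 and 3 of day 1 and could not be tested.

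The day 1 calls depended on single arrays. Without replicates 1, 2 and 3 of day 1 in turn the lower clones numbered 4, 1 and 5 and the higher clones 2, 1 and 2. Of the 13 clones called on day 1, STMIQ33 alone kept its call without each of the 6 arrays, and the other 12 lost it without at least 1 array of day 1. Without replicate 2 of day 1, the only array of that day with salt RNA in Cy5, the calls of STMIY92, STMIS80, STMJL70, STMES94, STMCX96, STMJL33, STMHA75, STMCE17, STMCU85, STMJA67 and STMJP13 were lost. Leaf markers also moved on that day. They were 39 clones for Rubisco, its activase and methyltransferases, and chlorophyll-binding proteins. Of these, 34 were lower on day 1, with a median of -1.60, and 2 were lower and 1 higher on day 3, with a median of 0.04. The day 3 arrays differed in these clones, with medians of 0.914, -0.256 and -0.300 on replicates 1, 2 and 3. The part of that shift in the P450 ratios of day 1 was not tested. The epidermis and trichome markers were clones for polyphenol oxidase and lipid-transfer proteins. On day 3, 4 of 9 tested ones were higher and 1 was lower, beside 1.96% and 4.43% of all tested clones. Their median was 0.356, and the part of this in the P450 ratios was not tested either. Of tuber marker clones, for patatin and patatin-like proteins, 1 of 7 was lower on day 1. Of vascular marker clones, all for sucrose synthase, 2 of 3 were higher. Among all clones tested on day 1, 10.4% were lower and 8.11% higher.

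**Figure D3:**
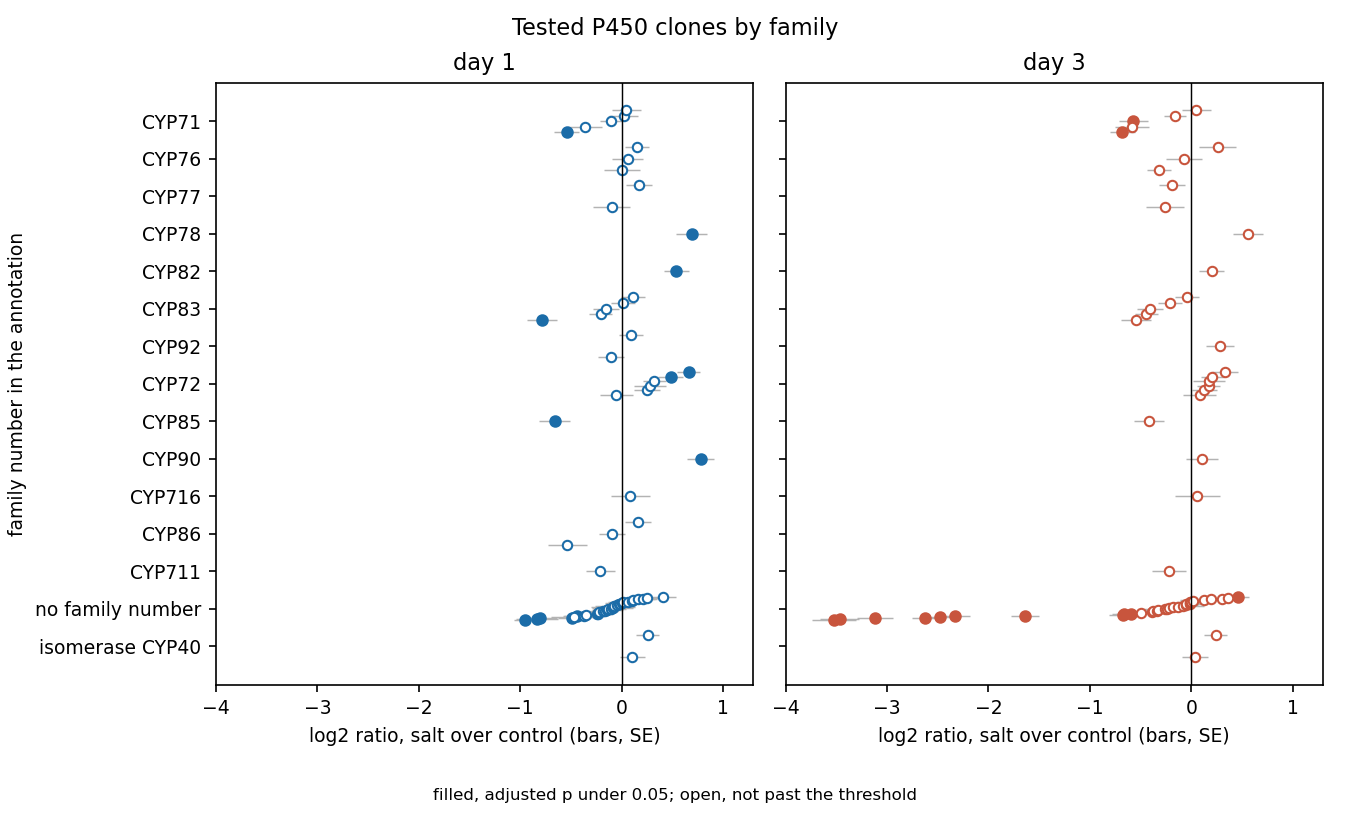
Fitted log2 ratio (salt over control, bars are SE) of each tested P450 clone by the family number in its annotation, on day 1 (left) and day 3 (right). Filled points passed an adjusted p of 0.05; the 7 filled points at or below -1.64 on day 3 all lie among the clones without a family number, and the 6 CYP72 clones lie between 0.08 and 0.33 on day 3.

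For the difference between the days, 6 of 62 tested P450 clones had a lower ratio on day 3 and 2 a higher one, against a background of 5.12% and 6.4% over 9028 tested clones. The 6 lower clones are those of the group described above, in 3 assemblies, and the higher ones are STMIQ33 and STMIC82. Without replicate 2 of day 1, replicate 3 of day 1 or replicate 2 of day 3 the higher count was 1. In 14 of the 62 clones measured at least 2 times on both days, all day 3 ratios lay below all day 1 ratios, and in 4 all lay above. These are 22.6% and 6.45%, beside 14.5% and 15.5% of 9030 clones on the whole array.

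The remaining clones showed no change past the threshold, which at 3 arrays a day does not show that they did not change. Of the 77 clones, 53 were called in no comparison, 9 of them because they could not be tested at all. Among the CYP71A clones, STMCK61 was at -0.36 on day 1 and -0.59 on day 3 (adjusted p = 0.0842), and STMEY68 at -0.11 and -0.16. STMIM48, named after rice P450LXXIA1, was at 0.02 and 0.05, and STMJF12 and STMJF13, Medicago-like clones of 1 assembly, were not tested. The CYP76A2 clones, from a family with terpene hydroxylases in other plants, lay between 0.003 and 0.15 on day 1 and between -0.32 and 0.26 on day 3 in the 3 that were tested. The CYP77A clones STMCK84 and STMCR59 were at 0.17 and -0.10 on day 1 and at -0.19 and -0.26 on day 3.

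CYP86A enzymes hydroxylate fatty acids for cutin and suberin, the waterproof polymers of leaf and root surfaces. STMIC57, named after CYP86A1, had 0.24, -0.87 and -0.65 on day 1 and no value on day 3, with a ratio of -0.53 (SE 0.19, adjusted p = 0.107). STMIJ46 and STMJE27, soybean-like clones of 1 assembly, were at 0.16 and -0.09 on day 1. Replicate 2 was the lowest array of day 1 for all CYP86A clones, at -0.87, -0.13 and -0.68, and none could be tested on day 3.

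The single CYP711A clone STMHS58, of the family of MAX1, which makes strigolactones in Arabidopsis, was at -0.21 and -0.22. The single CYP716A clone STMJF82, of a family of triterpene oxidases, was at 0.09 and 0.06. The CYP92B1 clones of petunia type were at 0.10 (STMHH42) and -0.10 (STMJP45) on day 1, and STMHH42 was at 0.28 on day 3. The isomerase CYP40 clones, which are no P450 enzymes, were at 0.26 (STMGU88) and 0.11 (STMGP53) on day 1 and at 0.24 and 0.04 on day 3. Leaving them out changed no count of calls.

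The other clones have no family number. The pear-like clones of 1 assembly, STMIB33, STMIZ61 and STMCC34, lay between -0.24 and -0.02 on day 1 and between -0.33 and -0.22 on day 3. The Arabidopsis-like clones STMIW52 and STMJF39 were at -0.39 and -0.38 on day 3, and STMID59 and STMIZ53 at 0.36 and 0.19. STMJC78, named after a Jerusalem artichoke P450, was at 0.41 on day 1 (SE 0.13, adjusted p = 0.0631) and 0.31 on day 3. Of the clones measured on all arrays, STMHW65, STMIS10 and STMER86 were nearest to 0 on day 1 and STMIQ33, STMJL62 and STMIS10 on day 3, each within 0.02. STMGP35, of a type named P450 like_TBP, stayed between -0.07 and 0.11 on all 6 arrays. STMEZ93, of the same type, was at 0.07 and -0.13. Neither STMGP35 nor STMEZ93 carries the ontology term for oxygen binding. STMGP76, named after a potato P450, was at 0.25 and -0.05.

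Genes that act beside P450 enzymes were taken from lists of words in the annotation. Their counts stand beside the shares over all tested clones, 10.4% lower and 8.11% higher on day 1 and 4.43% lower and 1.96% higher on day 3, and lists this short are given as counts only. Of 4 electron donor clones, for cytochrome b5 and its reductase, 0 passed on either day with limma (0 also at an unadjusted p under 0.05), with ratios from -0.23 to 0.04 on day 1 and from -0.26 to 0.05 on day 3. Of 12 clones for P450 enzymes of named pathways, 3 were lower on day 1, and 4 of 11 on day 3, with 0 higher. They were hydroperoxide lyase, which makes leaf aldehydes, in 2 clones of 1 assembly (STMCD19 at -1.57 and STMEL50 at -1.48 on day 3), and obtusifoliol demethylase of sterol synthesis (STMEB65 at -1.91). The fourth was a flavonoid hydroxylase-like clone (STMIH34) at -0.68. The list also took a flavonoid glucosyltransferase by its words. Its median was -0.083 on day 1 and -0.089 on day 3.

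Enzymes that can conjugate or export products of P450 reactions follow. The UDP-glycosyltransferase list also took, by its words, a glucosyltransferase named for glycoprotein (STMCL22). Among UDP-glycosyltransferases 3 of 12 were lower on day 1 and 2 of 11 on day 3, with 0 higher and medians of -0.027 and -0.219, beside 10.4% and 4.43% lower among all clones. The lower ones on day 3 were 2 clones of 1 assembly named zeatin O-glucosyltransferase, an enzyme that stores the hormone cytokinin. STMDV35 had -1.37, -1.58 and -1.51 on day 3 and 0.18, -0.33 and 0.41 on day 1 (difference -1.57, SE 0.18, adjusted p = 0.00131). The other, STMCY29, differed by -1.55 between the days (adjusted p = 0.00233). Both clones were below 0 on every array of day 3 and on both sides of 0 on day 1.

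Of 12 tested glutathione S-transferase clones, which attach glutathione to reactive compounds, 2 were higher and 2 lower on day 1. On day 3, 1 of 11 was higher, STMET22, at 0.89 on day 3 and 1.00 on day 1. Of 6 tested terpene cyclase clones 1 was lower on day 3, a sesquiterpene synthase (STMFB13, -0.76), and 0 of 10 passed on day 1 (limma; 3 at an unadjusted p under 0.05). Of 19 clones for oxoglutarate or flavin oxygenases and similarly named proteins, 4 were higher and 2 lower on day 1, led by an ethylene-forming-enzyme-like dioxygenase (STMHE18, 1.15) and an oxoglutarate-dependent oxygenase (STMER30, 0.91). On day 3, 1 of 17 was lower, a lignostilbene dioxygenase-like clone (STMJC96, -1.27). Among ABC transporters 2 of 18 were lower on day 1, led by STMCR28 at -0.77, and 0 of 15 passed on day 3 (limma; 1 at an unadjusted p under 0.05).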

How the data were processed

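Leaf RNA (15 micrograms per sample, from 100 mg of leaf, RNA integrity number of at least 7) was compared on 6 two-colour cDNA arrays, per the labels' protocols. The authors deposited log2 ratios (base taken, not stated), 1 per clone and array, and, for each clone and day, a p-value from a one-sample test. How spots were scanned, corrected, normalized and filtered is not stated in those sources. The annotated table was joined to the value table by the 6 ratios of a clone, which matched in all 10499 rows. No intensities were used and no ratio was turned.

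All clones were fitted in R 4.3.3 by limma 3.58.1 (lmFit and eBayes), each clone having 1 term per day plus 1 for the dye. A clone was tested for a day with at least 2 arrays of that day, an estimable dye term and at least 1 residual degree of freedom, so 9738 and 9032 clones were tested. P-values are two-sided and Benjamini-Hochberg adjusted over all tested clones, with the threshold at 0.05. SEs pool the spread of both days. Members, lists and naming rule (all members past the threshold with their values on each array, then families, repeats and those nearest to 0) were chosen with earlier results of these data known. The fit was tested on simulated data. Tables were handled in pandas 2.3.3 under Python 3.11.15 and drawn in matplotlib 3.10.9. Assemblies are clones linked by shared assembly numbers of the annotated table, directly or through another clone. Alternatives were the dye term, array scaling and centring, complete clones, the threshold, a replicate block, single days, each array left out, and the deposited p-values. Counts without the isomerase clones and per assembly were chosen after seeing the data.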

Additional observations from a re-analysis of the deposited data

Results flagged for a closer look

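The ratio differed between day 3 and day 1 by the contrast of the fit over all clones (limma, adjusted p under 0.05) in 8 P450 clones. It was lower on day 3 in STMGN13 (-3.43, adjusted p = 0.000389), STMCG85 (-3.39, adjusted p = 0.000196) and STMGB09 (-3.23, adjusted p = 0.000169), which share an assembly with STMDE16 (-2.23, adjusted p = 0.000447). It was also lower in STMGP12 (-2.34, adjusted p = 0.00151) and STMGF70 (-1.46, adjusted p = 0.00257). It was higher on day 3 in STMIQ33 (0.95, adjusted p = 0.00523) and STMIC82 (0.69, adjusted p = 0.0238). Leaves of the days came from different plants, and each day had 3 arrays.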

How the results depend on the processing

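No value of a called P450 clone changed its sign under any refit. Of 34 calls (a clone in a comparison), 15 kept their side of the threshold under every refit with limma that could be made, 7 of 13 on day 3, 7 of 8 for the difference and 1 of 13 on day 1. The counts moved by over 1.5 times as follows. Without the dye term the higher clones were 3 on day 1, 0 on day 3 and 1 for the difference. With the arrays of a day alone they were 3 on day 1 and 0 on day 3, and the lower clones were 4 on day 1. Scaling to equal spread gave 2 higher clones on day 3 and centring 0. At an adjusted p under 0.1 there were 2 higher on day 3 and 10 with a lower ratio on day 3 than on day 1. Counted once per assembly, the latter were 3. The authors' deposited p-values under 0.05 gave 5 lower clones on day 1 and 5 higher on day 3, and after Benjamini-Hochberg adjustment 0 in either direction on both days, so under that alternative no day 1 or day 3 call was kept. Leaving out each array in turn gave 1 to 7 higher and 1 to 11 lower clones on day 1, 0 to 1 and 5 to 14 on day 3, and 1 to 3 and 5 to 6 for the difference. The cause of these shifts was not tested, and the leave-outs also had fewer arrays.

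The labels do not say that a replicate number pairs samples across the days. Deviations from the day means of same-numbered arrays correlated with r of 0.046, 0.596 and 0.451 for replicates 1, 2 and 3, so not every pair was over 0.1 and the numbers were not used as pairs. Each replicate number also shares its dye orientation across the days. A replicate block in place of the dye term gave 6 higher and 8 lower clones on day 1, 1 and 12 on day 3, and 2 and 5 for the difference. STMEA65 and STMGP12 could not be fitted with the replicate block or without one of their own arrays. The p-values rest on 3 arrays a day, and no intensity was used to judge dim spots.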

Other observations

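Clones outside the word rule can also carry the ontology term for oxygen binding that 68 of the 77 P450 clones hold. There were 27 such clones, including enzymes of named pathways and a VDAC3.1 clone (STMGI75), a membrane channel that is no P450. Of 24 tested on day 3, 6 were lower and 0 higher (limma, 1 higher at an unadjusted p under 0.05), beside 4.43% lower and 1.96% higher among all clones. These clones were looked up after the P450 values were seen. The largest fall was in an unannotated clone, STMCY85, with -2.56, -3.05 and -2.25 on day 3 and 0.66, -1.13 and 1.00 on day 1, a fitted ratio of -2.84 (SE 0.20) on day 3 and -0.04 on day 1. It shares no assembly with a P450 clone. A geraniol hydroxylase-like clone (STMIL22) was at -0.51 on day 3, and a clone named after Arabidopsis T12C24.27 (STMIB46) was at -1.44 on day 1 and -0.93 on day 3.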
